A study of Mus musculus with 12 samples.

Results

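The genes described here code for receptors of glutamate, GABA, glycine, acetylcholine, noradrenaline and serotonin, and were measured by RNA sequencing in mouse retinal pigment epithelium (RPE), the pigmented layer behind the retina. They were taken by symbol from the deposited gene table: 56 of its 13942 rows had a symbol beginning with the root of a glutamate, GABA, glycine, acetylcholine, adrenergic, serotonin or dopamine receptor family. Of these, 2 are left out here, which leaves 54 members, and no row matched a dopamine receptor. Receptor subunits account for 52 of the members. The other two, Adrbk1 and Adrbk2, match by name but code for kinases that phosphorylate activated receptors. The polyA RNA came from C57BL/6J mice in 4 groups of 3 libraries: Sox9 conditional knockout (cKO) at postnatal day 5 (P5), wild type (WT) at P5, cKO in the embryo at E15.5 and WT at E15.5. Sox9 codes for a DNA-binding regulator of gene activity that many developing tissues use, and the design sets cKO against WT at each age. No Cre line, deleted exon of Sox9 or method of separating the RPE is named in the labels. Nor do they say whether the replicates of a group are different animals, and p-values here reflect the spread between samples alone, which may be technical.

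Ionotropic receptors are channels built from several subunits that open when the transmitter binds: AMPA, kainate and NMDA receptors for glutamate, GABA-A and glycine receptors for the inhibitory transmitters, nicotinic receptors for acetylcholine and one type for serotonin. Metabotropic glutamate, GABA-B, muscarinic, adrenergic and most serotonin receptors act through G proteins instead. Neurons of the retina and skeletal muscle are rich in such receptors, while the RPE is an epithelium that is known to respond to adrenergic agonists and acetylcholine.

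Each value is a gene count that the authors quantile-normalised across libraries, with lower values raised to a floor of 50, and the median of every library was 367.4. The sequencing depth is unknown, so no counting error can be attached to a value. Sox9 itself had 2136, 2384 and 2928 normalised counts in cKO libraries at P5, against 964, 1500 and 1111 in WT libraries at P5. Its log2 fold change was 1.07 ± 0.17 (SE; limma, adjusted p = 0.0316). The call was lost without cKO P5 replicate 2 or 3, WT P5 replicate 1 or any 1 of the 6 E15.5 libraries, with adjusted p of 0.0637 to 0.164. It was also lost with the replicate number as a block (0.0874), with both P5 libraries of highest photoreceptor signal left out (0.108), with a term for lens signal (0.123), with library weights (log2 0.68, 0.236) and when the 6 P5 libraries were fitted by themselves (0.848). At E15.5 its values were 1034, 990 and 1006 in cKO libraries and 1156, 1060 and 932 in WT libraries, with a log2 fold change of -0.05 ± 0.17 and an adjusted p of 1. The gene count therefore did not show a loss of Sox9 RNA and at P5 went against the label. It cannot check a deletion whose exons are unknown, and cKO and WT below name libraries as they are labelled. The 14 RPE marker genes in the table had a mean log2 value of 10.62 to 11.20 in cKO P5, 10.81 to 12.09 in WT P5, 8.83 to 9.2 in cKO E15.5 and 9.07 to 9.39 in WT E15.5. The cKO P5 mean includes 2 markers called lower in cKO than in WT at P5, beside 0.0444% of all genes. They were Rgr (log2 -6.02 ± 0.32, adjusted p = 1.91e-05) and Rpe65 (log2 -2.84 ± 0.33, adjusted p = 0.00617). No RPE marker was called higher, and the 14 had a median log2 fold change of -0.20. Markers of other tissues were present too. Mesenchyme markers lay between 11.86 and 13.20 over the 12 libraries, and photoreceptor, inner retinal neuron, lens and skeletal muscle markers varied between P5 libraries of 1 group.

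Most receptor genes were low. The number of members at the floor was lowest in WT P5 replicate 3, with 10 of 54, and highest in cKO P5 replicate 1, with 32 of 54. All 3 libraries were at the floor for 12 members in cKO P5, 8 in WT P5, 14 in cKO E15.5 and 17 in WT E15.5. Grm3, a metabotropic glutamate receptor, was at the floor in all 12 libraries. Per kilobase of annotated exon, the highest mean levels at P5 were those of Grik5, a kainate subunit that forms channels only with other subunits, at 389 normalised counts per kilobase in cKO and 312 in WT. The kinase gene Adrbk1 had 309 in cKO and 273 in WT, the adrenergic receptor gene Adra2c 266 in cKO and 281 in WT, and Gabbr1, the ligand-binding subunit of the GABA-B receptor, 216 in cKO and 206 in WT, on the same scale. At E15.5 Grik5 and Adrbk1 were still the highest of the 54, whereas Adra2c stood at 17.9 in cKO and 30.5 in WT. The limma fit took the 13523 genes of the table that exceeded the floor in 3 or more libraries. Among them were 48 members, and since a gene that is high in only 1 group passes for that reason, the 48 are not all the receptor genes. The 6 not tested were Grm2, Grm3, Grm6, Gabrg1, Glra2 and Adrb1.

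**Figure D1:**
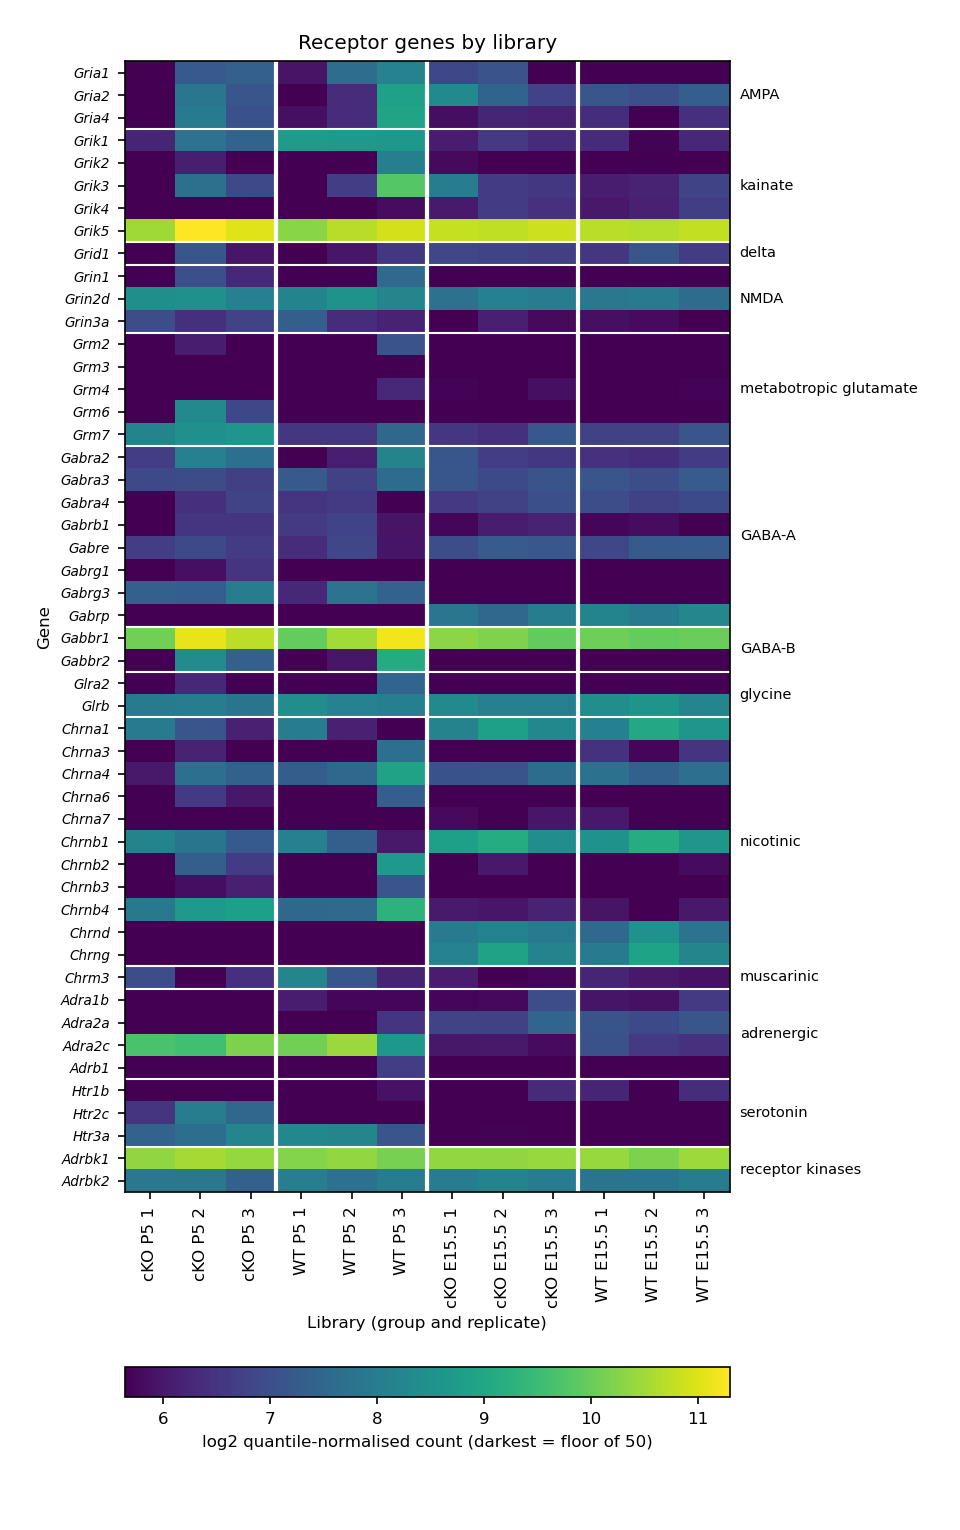
Normalised counts of 50 of the members in 12 libraries on a log2 scale, with genes in rows grouped by receptor class, libraries in columns ordered cKO P5, WT P5, cKO E15.5 and WT E15.5, and the darkest colour marking the floor of 50. Grik5, Gabbr1 and Adrbk1 are bright in all 12 libraries, Adra2c is bright in the 6 P5 libraries, and Chrnd, Chrng and Gabrp are above the floor only in the 6 E15.5 libraries.

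Between cKO and WT at P5, no member passed the test. The gene that came nearest was Htr2c, a serotonin receptor coupled to phospholipase C, which was above the floor in the 3 cKO libraries at P5 and in no other library, and so entered the test through that group alone. Grm7, a presynaptic metabotropic glutamate receptor, was next, and Grik1, a kainate receptor subunit, had the lowest fold change. None of the 48 members tested was called higher, where 0.2% of all genes were, and none was called lower, where 0.0444% were. At an unadjusted p under 0.05 stood 3 members, Htr2c, Grm7 and Grik1, beside 7.68% of all genes. The median log2 fold change of the members was -0.04, against -0.02 for all genes tested, and single values ran from -1.54 to 1.69. The 3 cKO libraries lay above the 3 WT libraries for 2 members, Htr2c and Grm7, beside 3.45% of all genes, and below them for 3 members, Grik1, Glrb and Adra1b, beside 2.73% of all genes.

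Htr2c (chrX:146962513-147197277, plus strand, GRCm38) had 90.3, 264 and 184 normalised counts in the 3 cKO P5 libraries, against 50, 50 and 50 in the 3 WT P5 libraries, and 50 in each of the 6 E15.5 libraries. The groups did not overlap. Because the WT group lay at the floor, the ratio of means is a lower bound, at least 3.59-fold higher in cKO. The log2 fold change was 1.69 ± 0.29 (SE), with an adjusted p of 0.0558, and an exact two-sided permutation test gave p = 0.1, the smallest that 3 libraries against 3 allow. Htr2c is known for its level in the choroid plexus, another epithelium, and in neurons. With library weights the adjusted p was 0.012 and with a term for the photoreceptor signal 0.00736, and over 19 alternatives it ran from 0.00736 to 1. The weights were 0.0441 for cKO P5 replicate 3 and 0.116 for WT P5 replicate 3, against 5.75 for WT P5 replicate 2. Since Htr2c passed the filter only through the cKO P5 libraries, where it is high, these tests and the lack of overlap only describe that group. They are no independent evidence of a difference.

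Grm7 (chr6:110645581-111567230, plus strand) had 288, 358 and 393 normalised counts in cKO P5 libraries, against 92.4, 92.4 and 185 in WT P5 libraries. At E15.5 it had 92.6, 84.2 and 145 in cKO and 108, 107 and 141 in WT. The cKO P5 libraries were thus above the other 9. The log2 fold change at P5 was 1.55 ± 0.30, a 2.81-fold ratio of means, with an adjusted p of 0.0891 and an exact permutation p of 0.1. Without WT P5 replicate 3 the log2 fold change was 1.88 and the adjusted p 0.0077. With a term for photoreceptor, skeletal muscle or lens signal the adjusted p was 0.00741, 0.0246 and 0.0374. Exons of Grm7 share 130 bases with another annotated gene, on the opposite strand, and no source states whether counting used the strand.

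Grik1 (chr16:87895900-88290265, minus strand) had 75.4, 224 and 174 normalised counts in cKO P5 libraries, against 436, 415 and 403 in WT P5 libraries. In E15.5 libraries it had 68.2, 96.3 and 81 in cKO and 80.2, 50.9 and 76.8 in WT. The 3 WT P5 libraries lay close together and above the other 9, while the cKO P5 libraries were spread over a wider range. The log2 fold change at P5 was -1.54 ± 0.34, with an adjusted p of 0.17 and an exact permutation p of 0.1. A term for the photoreceptor signal gave -1.56 with an adjusted p of 0.0286. In the same order of libraries, the mean log2 value of the 12 lens markers in the table was 8.68, 8.39 and 9.24 in cKO P5 and 7.57, 8.79 and 6.22 in WT P5. The 20 photoreceptor markers averaged 7.02, 10.30 and 9.30 in cKO P5 and 7.0, 8.11 and 11.08 in WT P5. The part of these signals in the differences of Htr2c, Grm7 and Grik1 was not tested beyond these terms. In bulk RNA, fewer cells of a type and less RNA per cell cannot be told apart.

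**Figure D2:**
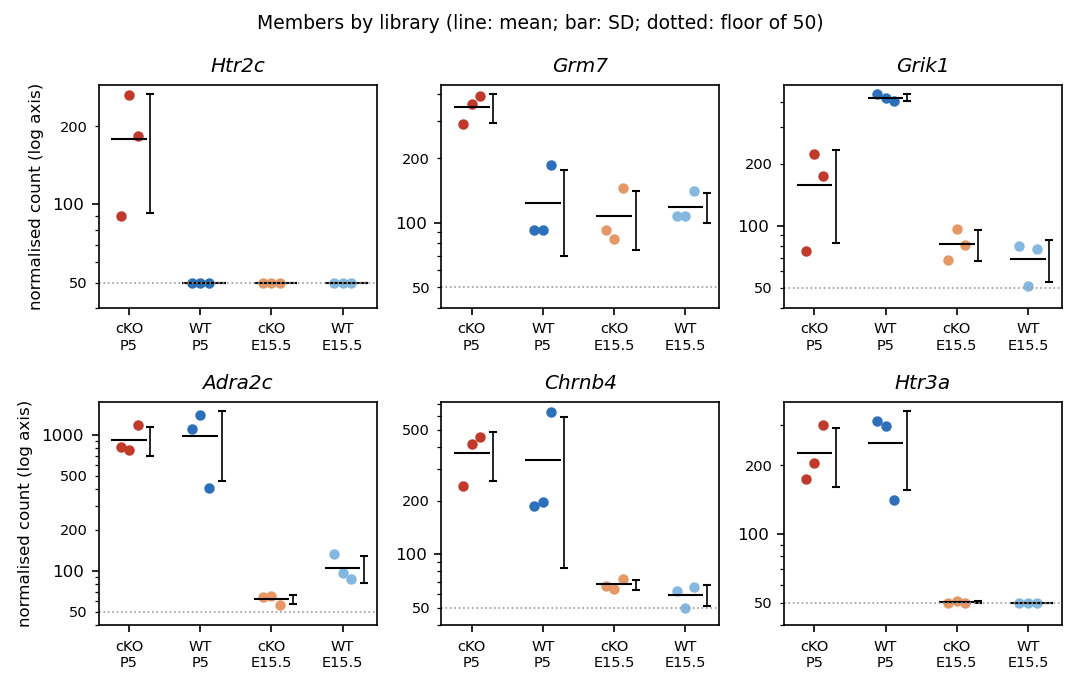
Normalised counts of 6 members in each library (points; vertical log axis with its own range per gene), with the mean (line), SD (bar beside the points, 3 libraries a group) and the floor of 50 (dotted), ordered cKO P5, WT P5, cKO E15.5 and WT E15.5. Htr2c and Grm7 stand above all other libraries in cKO P5, Grik1 stands highest in WT P5, and Adra2c, Chrnb4 and Htr3a are high in both P5 groups.

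At E15.5 the difference between cKO and WT libraries was smaller still. No member was called higher, as for all genes with 0%, and none was called lower, where 0.00739% of all genes were. At an unadjusted p under 0.05 stood 1 member, Gabrp, beside 0.362% of all genes. The members' median log2 fold change was 0.02, against 0 for all genes. No member had all cKO libraries above all WT libraries (2.11% of all genes), and 2 had them below (2.99% of all genes). These were Adra2c, with 64.3, 65 and 56.2 in cKO and 132, 96.3 and 86.9 in WT, and Chrna3, with 50, 50 and 50 in cKO and 88.4, 53.2 and 91.3 in WT. Their log2 fold changes were -0.74 ± 0.39 and -0.58 ± 0.47, each with an adjusted p of 1.

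The difference between genotypes was then compared between ages in 1 model. No member was called in either direction, where 0.0518% of all genes were called higher and 0.00739% lower. At an unadjusted p under 0.05 stood Htr2c, Grm7 and Grik1, beside 2.65% of all genes. Their interaction terms were 1.69 ± 0.42 for Htr2c, 1.73 ± 0.42 for Grm7 and -1.79 ± 0.49 for Grik1, with adjusted p of 0.751, 0.751 and 1. A difference between ages in the effect of genotype was thus not detected for any member.

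**Figure D3:**
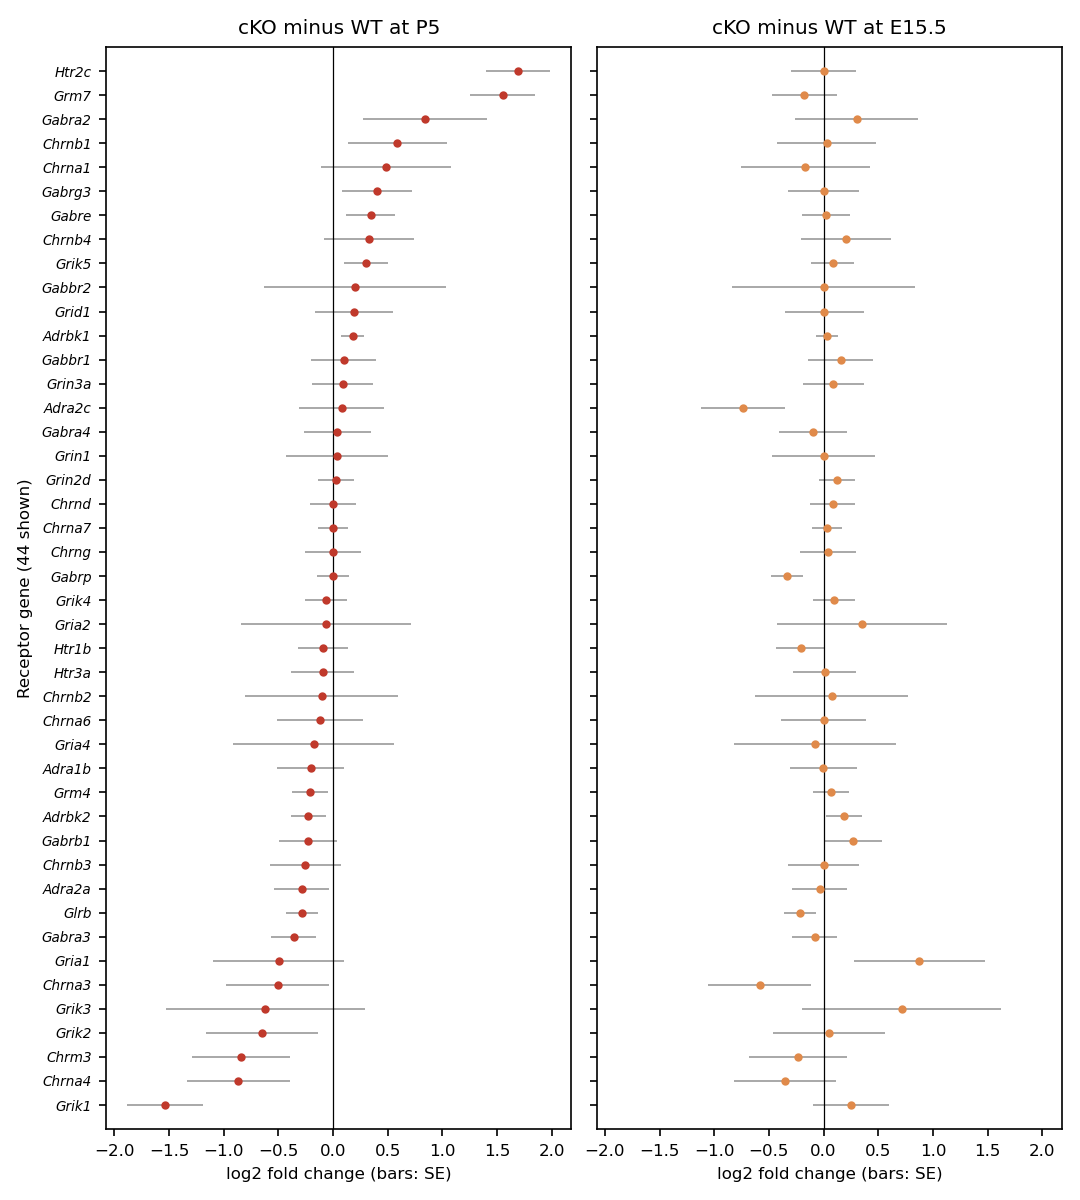
Log2 fold change of cKO minus WT (horizontal axis, points, with SE as bars) for 44 of the members tested, at P5 on the left and at E15.5 on the right, in the order of the P5 values. At P5 Htr2c and Grm7 stand apart at the top and Grik1 at the bottom, and at E15.5 the values lie between -0.74 and 0.88.

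More members were called between ages than between genotypes, as were more of all genes. In cKO libraries 8 of the 48 members rose at P5 relative to E15.5, beside 17.6% of all genes, and 5 fell, beside 26.1% of all genes. In WT libraries 8 rose, beside 15% of all genes, and 8 fell, beside 23.2% of all genes. Members that rose in both genotypes included Adra2c, Chrnb4, Htr3a, Gabrg3 and Grin3a, and members that fell in both were Chrng, Chrnd, Gabrp, Adra2a and Grik4. Htr2c and Grm7 were called higher in cKO only and Grik1 and Grin2d in WT only, and Chrna1, Chrnb1 and Gabre were called lower in WT only. The interaction was not called for any of these 7, so a difference between genotypes in the effect of age is not shown. The members' median log2 fold change was 0.12 in cKO, against -0.08 for all genes, and 0.20 in WT, against -0.07 for all genes. In cKO the P5 libraries lay above the E15.5 libraries without overlap for 8 members, beside 23.8% of all genes, and below for 11, beside 34.1%. In WT the counts were 10 above, beside 19.3%, and 8 below, beside 29.4%. Leaving out WT E15.5 replicate 2 or 3 left 4 or 5 members called lower in WT.

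The 4 subunits of the fetal muscle nicotinic receptor were lower at P5, and 2 of them, Chrng and Chrnd, fell in both genotypes. Chrng, the subunit of the fetal muscle channel that an adult subunit replaces around birth, had 50 in each of the 6 P5 libraries, against 282, 476 and 294 in cKO E15.5 and 251, 488 and 297 in WT E15.5. Chrnd likewise had 50 in each P5 library, against 252, 292 and 246 in cKO E15.5 and 189, 362 and 223 in WT E15.5. Both genes thus lay at the floor after birth, and each ratio of means is a bound: Chrng was at least 7.01-fold lower in cKO and at least 6.9-fold lower in WT, and Chrnd at least 5.26-fold and at least 5.16-fold lower. The log2 fold changes of Chrng were -2.74 ± 0.25 in cKO (adjusted p = 3.14e-05) and -2.70 ± 0.25 in WT (adjusted p = 3.56e-05). Those of Chrnd were -2.37 ± 0.21 and -2.29 ± 0.21 (adjusted p = 2.13e-05 and 2.85e-05). Chrng and Chrnd passed the filter through the E15.5 libraries alone, so these calls are partly set by it. Chrna1, the subunit that binds acetylcholine, had 256, 140 and 71.3 in cKO P5, 260, 71.1 and 50 in WT P5, 289, 457 and 313 in cKO E15.5 and 279, 533 and 392.2 in WT E15.5. Chrnb1 had 293, 228 and 151 in cKO P5, 275, 165 and 65 in WT P5, 459, 564 and 344 in cKO E15.5 and 374, 568 and 396 in WT E15.5. For these 2 subunits the P5 libraries lay below the E15.5 libraries in both genotypes but spread widely. In cKO the log2 fold changes were -1.33 ± 0.59 for Chrna1 (adjusted p = 0.0925) and -1.04 ± 0.45 for Chrnb1 (adjusted p = 0.085). In WT they were -1.98 ± 0.59 for Chrna1 (adjusted p = 0.023) and -1.60 ± 0.45 for Chrnb1 (adjusted p = 0.0177). The WT call of Chrna1 was lost without WT P5 replicate 2 or 3 or WT E15.5 replicate 2 or 3 (adjusted p 0.0578 to 0.082). That of Chrnb1 was lost without WT E15.5 replicate 2 (adjusted p 0.0678), and its log2 fold change was -1.04 without WT P5 replicate 3.

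Skeletal muscle markers were lower at P5 on average but were not all alike. In cKO 7 of 19 were called lower, beside 26.1% of all genes, and 1 higher, beside 17.6%. In WT 9 were called lower, beside 23.2%, and 0 higher, beside 15%. Acta1 reached 33277 and 24110 in cKO P5 replicates 1 and 2 and 32145 in WT P5 replicate 1, against at most 17297 at E15.5. Myh3 was at most 6603 at P5, against at least 11930 at E15.5. The mean log2 value of the 19 muscle markers in the table was 10.84, 10.87 and 9.46 in cKO P5, 10.77, 9.28 and 8.36 in WT P5, 11.30, 11.58 and 10.91 in cKO E15.5 and 10.92, 11.82 and 10.97 in WT E15.5. All 19 were above the floor in 11 libraries, and 5 were at the floor in WT P5 replicate 3. Within each P5 group, Chrna1 and Chrnb1 were lowest in the library with the lowest muscle signal. Chrng and Chrnd were at the floor also in cKO P5 replicates 1 and 2 and WT P5 replicate 1. The mean muscle signal of these 3 libraries, 10.77 to 10.87, came near the lowest E15.5 value of 10.91. Chrng was at least 251 in each E15.5 library. In these 3 P5 libraries Myog had 243, 334 and 220, against at least 1450 at E15.5. Actc1 was at most 2332 there, against at least 10447 at E15.5. Tnnt3 went the other way, with 6946, 6744 and 6545, against at most 3270 at E15.5. Close means therefore do not show that single muscle markers were alike. The part of muscle RNA in the falls of Chrng, Chrnd, Chrna1 and Chrnb1 was not tested. The gene for the adult muscle subunit was not analysed here.

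**Figure D4:**
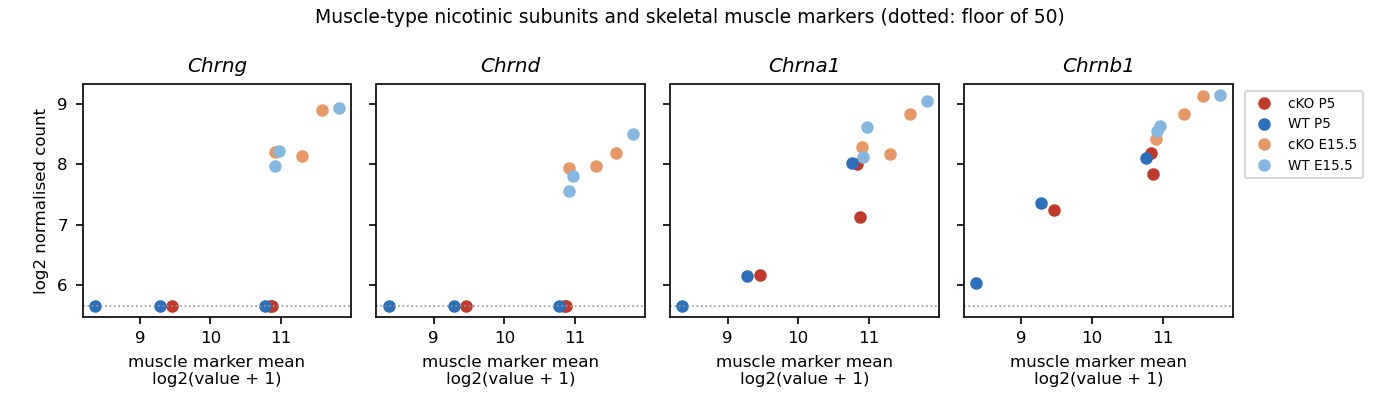
Log2 normalised count of Chrng, Chrnd, Chrna1 and Chrnb1 (vertical axis) against the mean log2 value of the 19 skeletal muscle markers (horizontal axis), with 1 point per library coloured by group and the floor of 50 dotted. Chrng and Chrnd lie at the floor in all 6 P5 libraries, whereas Chrna1 and Chrnb1 in the P5 libraries spread from near the floor to the lower end of the E15.5 values.

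Chrng and Chrnd are neighbours on chromosome 1, with 4.6 kb between them. Promoter windows from RefSeq (GRCm38.p6, 250 bases before to 50 after a gene's start) were searched on both strands for the E-box CANNTG, the motif read by myogenic and other basic helix-loop-helix factors, and for ACAAT, the core of motifs bound by SOX proteins. The letters overlap where an E-box reads CAATTG after an A. The table held 43 windows for 39 of the members, and none for Chrnd. The windows of the other 3 muscle subunits are shown, and all 3 were called lower with age in WT. No window is shown for Gabrp, Adra2a, Gabre and Grik4, which were called lower in WT too. Each of the windows shown for the 3 muscle subunits holds 3 E-boxes, in capitals. E-boxes were not particular to genes that fell: the window of Adra2c, which rose with age, holds 4. At least 3 E-boxes were found in 13.95% of member windows and 17.6% of the 32851 windows in the table. That cut-off equals the count in the muscle windows shown, which are among the member windows that reach it. These shares therefore do not test how rare the count is. The windows lie at chr1:87205561-87205860 on the plus strand for Chrng, chr2:73580289-73580588 on the minus strand for Chrna1 and chr11:69795888-69796187 on the minus strand for Chrnb1.
Chrng: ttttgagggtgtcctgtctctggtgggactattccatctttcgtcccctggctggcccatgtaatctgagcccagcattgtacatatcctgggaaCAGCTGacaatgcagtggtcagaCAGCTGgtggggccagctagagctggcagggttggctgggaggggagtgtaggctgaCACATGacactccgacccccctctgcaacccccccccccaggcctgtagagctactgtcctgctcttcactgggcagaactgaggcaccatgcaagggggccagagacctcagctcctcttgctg
Chrna1: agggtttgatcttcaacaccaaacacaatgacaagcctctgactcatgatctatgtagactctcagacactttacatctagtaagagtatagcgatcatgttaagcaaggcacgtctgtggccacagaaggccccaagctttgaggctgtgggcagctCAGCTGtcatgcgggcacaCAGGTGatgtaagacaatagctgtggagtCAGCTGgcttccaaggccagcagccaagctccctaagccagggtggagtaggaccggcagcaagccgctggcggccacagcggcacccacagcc
Chrnb1: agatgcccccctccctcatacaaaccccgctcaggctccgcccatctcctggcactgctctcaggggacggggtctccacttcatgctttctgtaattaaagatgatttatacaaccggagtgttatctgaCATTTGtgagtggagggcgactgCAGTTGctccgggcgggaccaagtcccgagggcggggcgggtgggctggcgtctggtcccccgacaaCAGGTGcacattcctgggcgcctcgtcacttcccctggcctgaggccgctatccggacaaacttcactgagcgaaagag
An E-box was present in 22 of the 43 member windows (51.2%), against 72.3% of all windows, and ACAAT in 15 (34.9%), against 31% of all windows. The windows of Htr2c and Grm7 held neither. Those of Adra2c and Chrnb4, which had the largest rises with age in cKO, each held 1 ACAAT on one strand or the other. They are shown with it in capitals, at chr5:35278316-35278615 on the plus strand for Adra2c and chr9:55048495-55048794 on the minus strand for Chrnb4. E-boxes in these windows of Adra2c and Chrnb4 are not marked. The windows of Chrng and Chrna1, called lower with age in WT, each held 2 ACAAT, left in lower case above. A match is a run of letters and not a bound site.
Adra2c: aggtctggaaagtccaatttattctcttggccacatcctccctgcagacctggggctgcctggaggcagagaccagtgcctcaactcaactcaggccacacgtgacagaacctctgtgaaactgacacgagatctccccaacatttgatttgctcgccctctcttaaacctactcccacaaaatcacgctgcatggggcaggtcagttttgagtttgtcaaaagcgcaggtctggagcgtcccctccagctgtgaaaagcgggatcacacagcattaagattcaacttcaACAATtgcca
Chrnb4: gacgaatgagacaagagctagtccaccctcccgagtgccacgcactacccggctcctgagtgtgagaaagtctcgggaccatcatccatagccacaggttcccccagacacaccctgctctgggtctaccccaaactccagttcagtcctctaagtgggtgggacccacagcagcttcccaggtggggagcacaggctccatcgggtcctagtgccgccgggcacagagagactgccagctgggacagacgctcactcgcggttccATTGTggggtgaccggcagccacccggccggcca

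Among the neuronal nicotinic subunits, 1 rose. Chrnb4, which pairs with the product of Chrna3 in ganglia, had 243, 414 and 456 in cKO P5, 187, 195 and 632 in WT P5, 66.6, 63.8 and 72.3 in cKO E15.5 and 61.7, 50 and 65 in WT E15.5. All 6 P5 libraries lay above the 6 E15.5 libraries. The rise was 5.49-fold in cKO (log2 2.39 ± 0.41, adjusted p = 0.00111) and at least 5.74-fold in WT (log2 2.26 ± 0.41, adjusted p = 0.00181). Chrna3 lies 1.6 kb from Chrnb4 and did not move with it: 50, 72.5 and 50 in cKO P5, 50, 50 and 210 in WT P5. Its log2 fold changes with age were 0.18 ± 0.47 in cKO and 0.10 ± 0.47 in WT. Chrna4, an acetylcholine-binding subunit of brain receptors, had 64.9, 210 and 168 in cKO P5, 159, 185 and 475 in WT P5, 133, 137 and 198 in cKO E15.5 and 217, 168 and 209 in WT E15.5. Its groups overlapped, and the log2 fold change of -0.86 ± 0.47 at P5 for genotype (adjusted p = 0.72) was called only with a term for the photoreceptor signal (-0.93, adjusted p = 0.0325). Chrna6, Chrna7, Chrnb2 and Chrnb3 were low and were called in no comparison, with most E15.5 libraries at the floor and WT P5 replicate 3 highest for Chrna6, Chrnb2 and Chrnb3 at 160, 410 and 139. Exons of Chrnb2 share 1365 bases with Adar on the other strand. The 1 muscarinic receptor gene, Chrm3, had 128, 50 and 85 in cKO P5, 299, 143 and 74.2 in WT P5, 68.5, 50 and 53.2 in cKO E15.5 and 75.5, 65.3 and 60.5 in WT E15.5. It was called in no comparison, with a genotype log2 fold change at P5 of -0.84 ± 0.45 (adjusted p = 0.714).

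Of the channel subunits for glutamate, the kainate genes gave the called changes besides 2 NMDA genes. Grik1, whose values are given above, rose 6.03-fold in WT (log2 2.60 ± 0.34, adjusted p = 0.000279), against a log2 fold change of 0.81 ± 0.34 in cKO (adjusted p = 0.0782). Grik4, which like Grik5 needs a partner subunit, had 50, 50 and 50 in cKO P5, 50, 50 and 56.8 in WT P5, 66.6, 101 and 86.9 in cKO E15.5 and 65.7, 71.2 and 103 in WT E15.5. It fell by 0.73 ± 0.19 on the log2 scale in cKO (adjusted p = 0.0111) and by 0.58 ± 0.19 in WT (adjusted p = 0.0361), both from values near the floor. The WT call of Grik4 was lost in 5 of the 12 fits with 1 library left out, those without WT P5 replicate 1 or 2, WT E15.5 replicate 2 or 3 or cKO P5 replicate 3 (adjusted p 0.0516 to 0.135), and was -0.38 without WT E15.5 replicate 3. Grik5 was even over groups, with 1434, 2513 and 2079 in cKO P5, 1250, 1652 and 1942 in WT P5, 1771, 1733 and 1857 in cKO E15.5 and 1687, 1625 and 1753 in WT E15.5. Grik3 had 50, 212 and 118 in cKO P5, 50, 102 and 888 in WT P5, 259, 98.7 and 94.7 in cKO E15.5 and 66.9, 72.5 and 111 in WT E15.5. Grik2 was above the floor in cKO P5 replicate 2 (69.8), WT P5 replicate 3 (272) and cKO E15.5 replicate 1 (55.3). For these 2 genes single libraries set the group mean.

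Grin2d, a subunit of the NMDA receptor that is prominent in development, had 351, 355 and 277 in cKO P5, 294, 367 and 301 in WT P5, 217, 278 and 258 in cKO E15.5 and 240, 250 and 201 in WT E15.5. It was called higher in WT, by 0.47 ± 0.16 on the log2 scale (adjusted p = 0.0401), with 0.38 ± 0.16 in cKO (adjusted p = 0.0806). Leaving out WT P5 replicate 2, cKO E15.5 replicate 2 or 3 or any WT E15.5 replicate ended that call (adjusted p 0.0515 to 0.146), and 643 of its exon bases are shared with another gene. Grin3a, a subunit that lowers calcium flow through NMDA receptors, had 126, 84.8 and 112 in cKO P5, 164, 82.3 and 74.1 in WT P5, 50, 71 and 55.2 in cKO E15.5 and 58.5, 55.8 and 50 in WT E15.5. The P5 libraries did not overlap the E15.5 libraries. It rose by 0.86 ± 0.28 in both genotypes (adjusted p = 0.029 in cKO and 0.0329 in WT). The cKO call was lost without cKO P5 replicate 1 or 3 or cKO E15.5 replicate 1 or 3 (adjusted p 0.0803 to 0.095). The WT call was lost without any WT E15.5 replicate or without WT P5 replicate 1 (adjusted p 0.0643 to 0.0993), and without that last library the log2 fold change was 0.51. Grin1, the subunit that every NMDA receptor contains, was at the floor in the 6 E15.5 libraries and had 50, 131 and 78.1 in cKO P5 and 50, 50 and 189 in WT P5. It was called in no comparison.

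The 3 AMPA and 2 delta genes were also called in no comparison. Gria2, which makes AMPA channels impermeable to calcium, had 50, 234 and 144 in cKO P5, 50, 82.3 and 468 in WT P5, 323, 176 and 110 in cKO E15.5 and 142, 131 and 160 in WT E15.5. Gria4 had 50, 246 and 134 in cKO P5, 58.9, 81.9 and 496 in WT P5, 57.5, 74.8 and 71.2 in cKO E15.5 and 83.8, 50 and 86.4 in WT E15.5. Each had its spread at P5 within a genotype rather than between genotypes. Gria1 was at the floor in the 3 WT E15.5 libraries, with 116, 136 and 50 in cKO E15.5, a log2 fold change of 0.88 ± 0.60 (adjusted p = 1), and had 50, 151 and 165 in cKO P5 and 61.6, 202 and 285 in WT P5. Grid1, a delta subunit that acts in synapse formation, had 50, 143 and 63 in cKO P5, 50, 63.8 and 94.8 in WT P5 and 92.4 to 141 in the 6 E15.5 libraries.

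Of the 5 metabotropic glutamate receptor genes, Grm7 rose in cKO, 3.23-fold over E15.5 (log2 1.71 ± 0.30, adjusted p = 0.0011), against a log2 fold change of -0.01 ± 0.30 in WT (adjusted p = 0.976). Grm6, the receptor by which ON bipolar cells sense photoreceptor glutamate, was above the floor only in 2 cKO P5 libraries and was not tested. It had 50, 323 and 117 in cKO P5, against 50 in the 3 WT P5 libraries and in the 6 E15.5 libraries. The photoreceptor marker mean was 7.02, 10.30 and 9.30 in these cKO P5 libraries, and its highest value, 11.08, was in WT P5 replicate 3. The part of retinal RNA in the Grm6 values was not tested. Grm2 was above the floor only in cKO P5 replicate 2, at 67.8, and WT P5 replicate 3, at 136. Grm4 was above it by more than 10 only in WT P5 replicate 3, at 77.4.

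Among the GABA-A receptor genes, Gabrg3 rose and Gabrp fell in both genotypes. Gabrg3, a gamma subunit, had 166, 162 and 258 in cKO P5, 78.5, 224 and 171 in WT P5 and 50 in each of the 6 E15.5 libraries. It rose at least 3.91-fold in cKO (log2 1.91 ± 0.32, adjusted p = 0.00097) and at least 3.15-fold in WT (log2 1.51 ± 0.32, adjusted p = 0.00437). Gabrp, a subunit found mainly outside the nervous system, had 50 in each of the 6 P5 libraries, against 233, 186 and 263 in cKO E15.5 and 294, 255 and 305 in WT E15.5. The falls were at least 4.55-fold in cKO (log2 -2.15 ± 0.15, adjusted p = 5.49e-06) and at least 5.7-fold in WT (log2 -2.48 ± 0.15, adjusted p = 2.41e-06). The floor leaves Gabrp at P5 and Gabrg3 at E15.5 without spread, so their SE and adjusted p may be too small. Each passed the filter only through the age at which it is high. Their age calls and lack of overlap are therefore partly set by the filter. Gabre had 102, 119 and 99.2 in cKO P5, 81.8, 115 and 62 in WT P5, 126, 156 and 145 in cKO E15.5 and 114, 151 and 157 in WT E15.5. Its groups overlapped in WT, where it fell by 0.73 ± 0.22 on the log2 scale (adjusted p = 0.0246), a call that was lost without WT P5 replicate 1 or 3 or WT E15.5 replicate 2 or 3 (adjusted p 0.0551 to 0.0882). Gabra2 and Gabra3, which code for alpha subunits, passed no test: Gabra2 had 102, 277 and 209 in cKO P5, 50, 69.7 and 289 in WT P5, 143, 102 and 94.7 in cKO E15.5 and 87.1, 84 and 100 in WT E15.5, and Gabra3 lay between 105 and 201 in all 12 libraries. Gabra4 and Gabrb1 were called in no comparison either.

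The 2 GABA-B subunits, which work as a pair, differed in pattern. Gabbr1 was high in every library, with 1098, 2217 and 1708 in cKO P5, 1002, 1466 and 2320 in WT P5, 1278, 1187 and 980 in cKO E15.5 and 1055, 996 and 1022 in WT E15.5. Gabbr2 was at the floor in the 6 E15.5 libraries and had 50, 329 and 166 in cKO P5 and 50, 63.8 and 560 in WT P5. Neither was called: with age, Gabbr2 had log2 fold changes of 1.47 ± 0.84 in cKO (adjusted p = 0.178) and 1.27 ± 0.84 in WT (adjusted p = 0.254). Of the glycine receptor genes, Glrb, the subunit that binds the anchoring protein gephyrin, had 247, 258 and 230 in cKO P5, 347, 283 and 271 in WT P5, 328, 274 and 277 in cKO E15.5 and 340, 381 and 300 in WT E15.5. The cKO libraries lay below the WT libraries at P5 without overlap (log2 -0.29 ± 0.14, adjusted p = 0.695). Glra2, which forms the channel with it, was above the floor only in cKO P5 replicate 2, at 77.6, and WT P5 replicate 3, at 180.

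The largest rise of any member was that of Adra2c, a Gi-coupled adrenergic receptor (chr5:35278319-35281763, plus strand). It had 812, 773 and 1168 in cKO P5, 1097, 1403 and 405 in WT P5, 64.3, 65 and 56.2 in cKO E15.5 and 132, 96.3 and 86.9 in WT E15.5. Every P5 library was above every E15.5 library. The means differed 14.8-fold in cKO (log2 3.85 ± 0.39, adjusted p = 4.65e-05) and 9.22-fold in WT (log2 3.04 ± 0.39, adjusted p = 0.000225), and these calls held under all 21 alternatives of each. At P5 Adra2c averaged 918 ± 218 in cKO and 968 ± 511 in WT (SD, n = 3 each), a log2 fold change of 0.08 ± 0.39 (adjusted p = 1). Without WT P5 replicate 3 that value was -0.46 (adjusted p 0.455). The RPE markers rose between the ages as well, and their part in the rise of Adra2c was not tested. Adra2a, its close relative, went the other way: 50, 50 and 50 in cKO P5, 50, 50 and 91.5 in WT P5, 111, 108 and 178 in cKO E15.5 and 137, 121 and 140 in WT E15.5. It fell at least 2.65-fold in cKO (log2 -1.35 ± 0.25, adjusted p = 0.00169) and at least 2.08-fold in WT (log2 -1.10 ± 0.25, adjusted p = 0.00613). Adra1b had 50, 50 and 50 in cKO P5, 67.8, 53.2 and 53.2 in WT P5, 53.3, 54.3 and 126 in cKO E15.5 and 62.7, 59.9 and 97.3 in WT E15.5, and was called in no comparison. Adrb1 was above the floor only in WT P5 replicate 3, at 101.

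Of the serotonin receptor genes, Htr3a rose in both genotypes. Htr3a codes for the serotonin-gated channel. It had 175, 204.5 and 299 in cKO P5, 311, 297 and 141 in WT P5, 50, 51 and 50 in cKO E15.5 and 50, 50 and 50 in WT E15.5. P5 libraries stood at least 4.49-fold higher than E15.5 libraries in cKO (log2 2.11 ± 0.29, adjusted p = 0.000277) and at least 5-fold higher in WT (log2 2.21 ± 0.29, adjusted p = 0.000246), and the genotypes overlapped at P5. Htr2c was at least 3.59-fold higher at P5 than at E15.5 in cKO (log2 1.69 ± 0.29, adjusted p = 0.00115), a description of the group that let it into the test, and was at the floor at both ages in WT. Htr1b stayed within 50 to 84.1 in all 12 libraries, and 852 of its exon bases are shared with another gene. The kinase genes were even: Adrbk1, coding for GRK2, had 1310, 1473 and 1361 in cKO P5, 1218, 1328 and 1120 in WT P5, 1331, 1315 and 1377 in cKO E15.5 and 1378, 1160 and 1419 in WT E15.5, and Adrbk2, coding for GRK3, lay between 169 and 295. Neither was called in any comparison.

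The libraries of a genotype at P5 did not carry the receptor genes alike. WT P5 replicate 3 held the highest value of its group for 27 of the 48 members tested (56.2%), against 38.3% of all genes tested, and cKO P5 replicate 2 for 24 (50%), against 34.7%. Both held at once for 17 members (35.4%), against 23.1% of all genes, among them Gria2, Gria4, Grik2, Grik3, Grik5, Grid1, Grin1, Gabra2, Gabra3, Gabbr1, Gabbr2, Chrna3, Chrna4, Chrna6 and Chrnb2. The reverse, the lowest value in both libraries, held for 3 members (6.25%), against 25.2% of all genes, namely Adra2c, Grin3a and Chrm3. In the same 2 libraries, markers of photoreceptors and inner retinal neurons were the highest of their group. Inner retinal neuron markers, 20 of 27 in the table, averaged 7.03, 9.24 and 8.61 on the log2 scale in cKO P5 and 7.17, 7.98 and 9.89 in WT P5, with 9, 1 and 1 of the 20 at the floor in cKO P5 and 8, 5 and 0 in WT P5. At E15.5 the same markers averaged 7.88 to 8.35 in cKO and 7.94 to 8.43 in WT. Photoreceptor markers averaged 5.67 to 5.71 in the 6 E15.5 libraries, where at least 18 of the 20 were at the floor. RPE markers ran the other way in WT, where replicate 3 had the lowest value of its group. The part of retinal RNA in these receptor values was not tested. With cKO P5 replicate 2 and WT P5 replicate 3 both left out, the age calls numbered 8 higher and 7 lower in cKO and 10 higher and 8 lower in WT, and 1 member, Grm7, was called higher in cKO than in WT at P5 (log2 1.85, adjusted p = 0.0306).

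**Figure D5:**
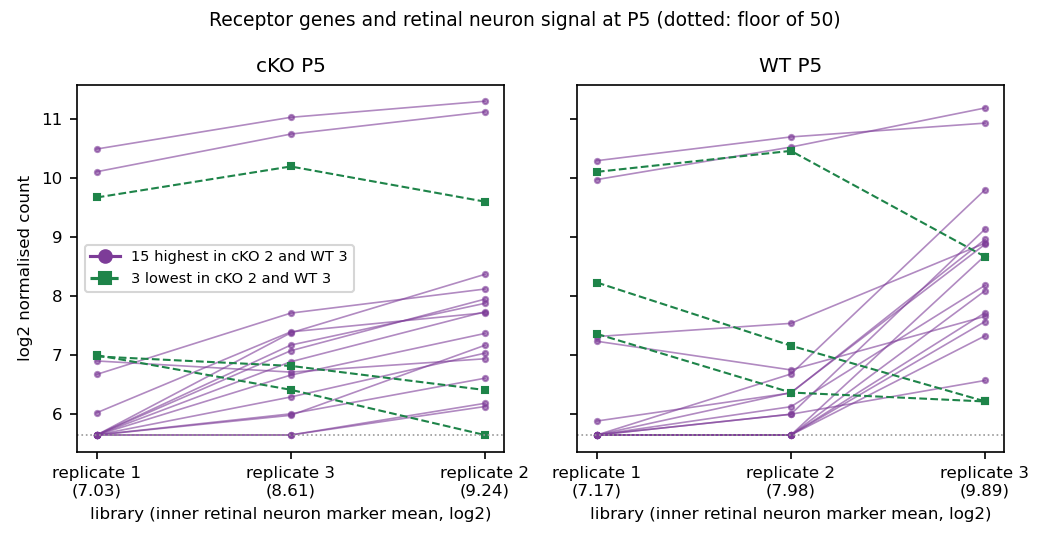
Log2 normalised counts of 15 of the members that were highest in both cKO P5 replicate 2 and WT P5 replicate 3 (solid lines) and the 3 that were lowest in both (dashed lines), with cKO P5 on the left and WT P5 on the right, libraries ordered by their mean inner retinal neuron marker value (in brackets, log2) and the floor of 50 dotted. The solid lines climb to the library with the highest marker value in each panel, and the dashed lines end there at their lowest.

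Several members lie side by side in the genome, which the choice by symbol did not use. Within 2 Mb lay 11 pairs. Chrna6 and Chrnb3 are 3.5 kb apart and Gria2 and Glrb 40.8 kb apart. Neighbours did not always move together: Chrng and Chrnd were called in the same direction, while of Chrnb4 and Chrna3 only Chrnb4 was called. Exons of 15 members share bases with another annotated gene, among them Grin1 (1307 bases).

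Genes that work with these receptors were taken from 6 lists. Between genotypes, 1 of them was called, and none at E15.5. Lypd1, a membrane-anchored protein that binds nicotinic receptors and dampens them, had 188, 162 and 197 in cKO P5, against 50, 50 and 50 in WT P5, with 201, 160 and 206 in cKO E15.5 and 166, 142 and 159 in WT E15.5. Only the WT P5 group lay at the floor. At E15.5 the genotypes differed by 0.27 ± 0.14 on the log2 scale (adjusted p = 1). The difference at P5 was 1.84 ± 0.14 on the log2 scale (adjusted p = 0.000296), and was not called when the 6 P5 libraries were fitted by themselves (adjusted p = 0.189). The interaction with age was 1.57 ± 0.20 (adjusted p = 0.0227). The interaction was lost without cKO P5 replicate 2 or 3, WT P5 replicate 1 or 2, cKO E15.5 replicate 1 or 2 or any WT E15.5 replicate (adjusted p 0.0596 to 0.134), and under 3 other alternatives (0.0543 to 0.0821). No member of the other 5 lists was called for genotype at either age. Their largest log2 fold changes at P5 were 0.81 for Dlg2, a scaffold of glutamate synapses, -0.58 for the glutamate transporter gene Slc1a2, -0.41 for the glycine transporter gene Slc6a9, 0.42 for Maob and 0.59 for Grk4.

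With age, some genes of each list were called, and the counts are read against the 17.6% of all genes called higher and 26.1% called lower in cKO, and 15% and 23.2% in WT. Of 10 tested genes for glutamate synthesis and transport, 3 rose (Slc1a1, Slc1a3 and Glul) and none fell in each genotype, and the list's median log2 fold change was 1.41 in cKO and 1.36 in WT, against -0.08 and -0.07 over all genes. Slc1a1, which takes glutamate into epithelia and neurons, had 1268, 1769 and 2194 in cKO P5, 1918, 2487 and 1091 in WT P5, 64, 50 and 50 in cKO E15.5 and 77.1, 67.5 and 50 in WT E15.5. Its log2 fold changes were 4.94 in cKO and 4.74 in WT. At P5 the list's mean log2 level was 8.15, 9.19 and 9.06 in cKO and 8.22, 8.81 and 9.64 in WT, highest in the libraries with the highest retinal marker values. Of 17 genes for GABA and glycine handling, 5 rose and 1 fell in each genotype. That list's mean log2 level at P5 was 8.26, 9.25 and 9.0 in cKO and 8.33, 8.67 and 9.62 in WT, in the same order of libraries as the retinal markers, and the part of retinal RNA in either list was not tested. Slc6a13, a GABA transporter, rose by 3.45 in both genotypes and Slc6a9 by 2.11 in cKO and 2.47 in WT, while Kctd12, an auxiliary subunit of GABA-B receptors, fell by 1.38 in cKO and by 1.09 in WT. Of 15 genes around acetylcholine, 4 rose and 3 fell in cKO, and 3 rose and 4 fell in WT. Lynx1, a nicotinic receptor modulator, rose by 2.72 in cKO and 2.49 in WT, and Dok7, which organises the muscle endplate, fell by 0.92 in cKO and by 1.57 in WT. Of 32 partners of AMPA, kainate and NMDA receptors, 5 rose and 3 fell in cKO, and 4 rose and 3 fell in WT, among them Homer2, a scaffold protein, which fell by 1.5 in cKO and by 1.52 in WT. Of 23 genes for G proteins, cyclases, arrestins and kinases, 7 rose and 3 fell in cKO, and 9 rose and 3 fell in WT. The cyclase gene Adcy8 fell by 1.35 in cKO and by 1.38 in WT. Of 5 monoamine genes tested, 1 rose and 1 fell in cKO and 1 fell in WT. Maob, which breaks down monoamines, fell by 0.89 in cKO and by 1.43 in WT.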

How the data were processed

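RNA-seq of mouse RPE gave 12 libraries, 3 in each of 4 groups, assigned by the genotype and age in their labels (titles write kd for the libraries labelled cKO). TopHat2 2.0.10, HTSeq and the mm10 build are named in the submitters' processing notes. No source used here gives the annotation release, strand setting or depth. The authors deposited a signal, namely gene counts that they quantile-normalised with a floor of 50, per the table's title. All 12 columns held the same sorted values, with 9.87% of each at the floor, so column totals say nothing about depth.

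Values were taken as log2(value + 1). The 13523 genes that exceeded the floor in 3 or more libraries went into limma 3.58.1 (R 4.3.3), with 1 mean per group over all 12 libraries and a mean-variance trend in eBayes. All tests are two-sided, with Benjamini-Hochberg adjustment over the whole fit and calls at 0.05, and limma is the source of each adjusted p. Members also had an exact permutation test over 3 libraries a group. The fit was tested on simulated data. Fold changes understate the change of genes near the floor. A group whose libraries all lie at the floor has no spread, and the fit shares 1 estimate of the spread over the groups. For such genes, among them Chrng, Chrnd, Gabrp, Gabrg3, Htr2c and Lypd1, SE and p-values may therefore be too small. Chrng, Chrnd, Gabrp and Gabrg3 were above the floor at 1 age only, so the filter partly sets their age calls. Positions are from GENCODE M21 (GRCm38), promoter sequences from RefSeq (GRCm38.p6).

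Members, lists and tests were chosen with earlier results of these data known. Values in every library are given for up to 3 members per class with the largest change for genotype at P5 and 1 at E15.5, the highest of each class, and the 8 largest called rises and falls with age per genotype. Of the partner lists, called genes were named in part and others by the largest change at P5. Marker means are over listed genes in the table. Alternatives were other pseudocounts, filters, weights, marker terms, a replicate block and libraries left out. Counts cover all members, of which a few are not reported here by name or drawn.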

Additional observations from a re-analysis of the deposited data

Results flagged for a closer look

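Lypd1 is listed because the test of the interaction called a difference between ages in the effect of genotype, a call that was lost in 12 of 23 alternatives. The log2 fold change of cKO over WT was 1.84 ± 0.14 at P5 (adjusted p = 0.000296) and 0.27 ± 0.14 at E15.5 (adjusted p = 1), and the interaction was 1.57 (adjusted p = 0.0227 by limma). The call was lost with a pseudocount of 50 (1.0, adjusted p = 0.065), with a term for lens signal (1.51, adjusted p = 0.0821), with both P5 libraries of highest photoreceptor signal left out (1.65, adjusted p = 0.0543) and in 9 fits with 1 library left out, and the adjusted p ran from 0.00885 to 0.134. Its WT P5 libraries were all at the floor of 50, and the fitted P5 value depends on the pseudocount, with 1.21 at a pseudocount of 50.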

How the results depend on the processing

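Counts of called members were recomputed under the alternatives. For cKO over WT at P5, the count of 0 higher became 1 with library weights (Htr2c), with the replicate block (Grm7, adjusted p 0.02), with a term for lens or for skeletal muscle signal (Grm7) and with both P5 libraries of highest photoreceptor signal left out (Grm7), an alternative chosen after seeing the data. It became 2 with a term for the photoreceptor signal (Htr2c and Grm7). Leaving out 1 library gave 0 to 1, with 1 without WT P5 replicate 3. The count of 0 lower became 2 with the photoreceptor term (Chrna4 and Grik1). For P5 over E15.5 in WT, the 8 lower became 4 in a fit of those 6 libraries alone, and 4 to 9 with 1 library left out. The interaction count of 0 higher became 1 with library weights (Htr2c). The cause was not tested. All other counts stayed within 1.5 times their value in the report, and no called value changed sign. Whether the replicate numbers pair the samples cannot be settled with 3 libraries a group. Correlations of same-numbered deviations were 0.783, -0.297 and 0.185 at P5 and -0.019, 0.274 and -0.0216 at E15.5. Replicates 1 and 3 of cKO correlated best with the WT library of their own number at P5, and only replicate 2 did at E15.5. The block moved no other count of members by more than 1.5 times. A pseudocount of 50 lowered log2 fold changes of genes near the floor, that of Htr2c at P5 to 1.12. Over 153 single values and 3313 alternatives, 171 lost a call, 11 gained one and 34 uncalled values took the other sign with a shift of at least 1 SE. Several uncalled genotype values at P5 depended on 1 library: without WT P5 replicate 3, Gria2 stood at 0.88, Gria4 at 0.76 and Grik3 at 0.59. Htr2c could not be tested without any 1 of the cKO P5 libraries or with a filter of 6 libraries, because it was above the floor in 3. Values near the floor of 50 hide differences below it, and depth is unknown.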
